A study of Homo sapiens with 8 samples.

Results

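The metallothioneins measured here were MT1E, MT1F, MT1G, MT1X and MT2A, taken by gene name from the rows of the deposited tables that belong to annotated genes. They were 5 of 20565 annotated genes in the tables, and 3 of the 5 (MT1E, MT1X and MT2A) had enough reads to be tested among 4778 tested genes. MT1F and MT1G did not pass the filter on low counts and are described by their reads. The 5 genes had 47 transcript models in the tables, of which 38 had reads, and together held 888 reads. Native RNA of 3 established human cell lines was read by direct RNA sequencing on nanopores, so that the RNA itself is read and no cDNA copy is counted. The lines were K562, from a chronic myelogenous leukaemia (2 libraries), HepG2, from a hepatocellular carcinoma (3 libraries), and GM12878, B cells carried as a lymphoblastoid line (3 libraries). No treatment is given in the labels for any of them, each line stands for 1 individual, and whether libraries of a line came from separate cultures is not stated, so p-values here cover a spread between libraries that may be technical. The study set such reads beside PacBio reads with TALON, a program that assigns long reads to transcript models. The PacBio reads were not analysed here.

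Metallothioneins are small cytosolic proteins in which cysteines hold zinc and copper ions, and cadmium when cells are exposed to it. Their genes are switched on by zinc and cadmium through the factor MTF1, which binds metal response elements in their promoters, and also by glucocorticoids and oxidants. The liver is a classical site of metallothionein synthesis, where MT1 and MT2 proteins store zinc. MT2A is the single MT2 gene of the human cluster, and the MT1 genes are its near copies.

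The coding sequences show both what the genes share and how little separates them. They are read from GENCODE 29 transcripts (GRCh38) without the stop codon, 5′ to 3′, and capitals mark the cysteine codons.

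MT2A: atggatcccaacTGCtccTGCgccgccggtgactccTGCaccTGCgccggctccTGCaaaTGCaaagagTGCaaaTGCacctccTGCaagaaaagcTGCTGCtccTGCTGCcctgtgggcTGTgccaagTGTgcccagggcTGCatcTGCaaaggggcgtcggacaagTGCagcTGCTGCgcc

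MT1E: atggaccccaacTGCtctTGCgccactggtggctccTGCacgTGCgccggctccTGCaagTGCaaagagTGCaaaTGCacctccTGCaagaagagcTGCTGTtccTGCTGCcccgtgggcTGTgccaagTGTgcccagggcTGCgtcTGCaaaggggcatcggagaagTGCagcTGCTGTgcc

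MT1X: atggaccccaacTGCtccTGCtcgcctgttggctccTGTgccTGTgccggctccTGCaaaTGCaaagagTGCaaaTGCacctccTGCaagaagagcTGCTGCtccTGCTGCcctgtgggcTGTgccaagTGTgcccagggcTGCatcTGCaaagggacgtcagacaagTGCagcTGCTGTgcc

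MT1F: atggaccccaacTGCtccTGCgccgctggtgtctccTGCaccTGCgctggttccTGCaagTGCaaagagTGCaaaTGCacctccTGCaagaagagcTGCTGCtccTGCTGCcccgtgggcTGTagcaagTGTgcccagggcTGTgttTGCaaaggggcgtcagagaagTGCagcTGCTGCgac

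MT1G: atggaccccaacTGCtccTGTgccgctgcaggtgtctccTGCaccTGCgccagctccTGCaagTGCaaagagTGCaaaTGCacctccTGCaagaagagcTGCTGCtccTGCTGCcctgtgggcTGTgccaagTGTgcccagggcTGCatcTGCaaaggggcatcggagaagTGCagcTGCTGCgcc

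MT2A, MT1E, MT1X and MT1F code for 61 amino acids and MT1G for 62, and each of the 5 holds 20 cysteine codons and no histidine codon. MT2A has 18 TGC and 2 TGT codons, while MT1X has 15 TGC and 5 TGT. Aligned in pairs, the coding sequences were 88.5% identical for MT1F and MT1X, the least alike, and 94.1% for MT1G and MT2A, the most alike, with 11 differing bases. The longest run of bases shared by 2 of the main transcripts was 96 bases, between MT1G and MT1X. No source used here says how reads were divided between such near copies or whether strand was used in counting, so the value of a single gene is less certain than the sum of the 5. MT1G lies on the minus strand and the other 4 on the plus strand.

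All 5 genes lie on chromosome 16 (GRCh38). MT2A spans chr16:56608199-56609497, MT1E chr16:56625475-56627112, MT1F chr16:56657694-56660698, MT1G chr16:56666731-56668065 and MT1X chr16:56682424-56684196. Each main model has 3 exons. MT2A has the shortest introns of the main models, of 308 and 205 bases, and the second intron of MT1X, of 727 bases, is the longest.

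Promoter sequence was at hand for MT2A and MT1X, which both had reads in all 8 libraries. It covers 250 bases before to 50 after the RefSeq gene start (RefSeq, GRCh38.p14, plus strand), at chr16:56608334-56608633 for MT2A and chr16:56682220-56682519 for MT1X. Capitals mark matches on either strand to the core of the metal response element, spelled here as TGCACNC or TGCGCNC. The matches did not overlap.

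MT2A: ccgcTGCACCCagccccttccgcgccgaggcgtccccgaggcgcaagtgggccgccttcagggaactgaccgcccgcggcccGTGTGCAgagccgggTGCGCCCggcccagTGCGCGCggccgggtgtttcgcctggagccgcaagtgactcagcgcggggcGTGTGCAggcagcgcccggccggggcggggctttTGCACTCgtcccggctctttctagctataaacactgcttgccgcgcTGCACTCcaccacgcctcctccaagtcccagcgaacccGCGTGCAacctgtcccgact

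MT1X: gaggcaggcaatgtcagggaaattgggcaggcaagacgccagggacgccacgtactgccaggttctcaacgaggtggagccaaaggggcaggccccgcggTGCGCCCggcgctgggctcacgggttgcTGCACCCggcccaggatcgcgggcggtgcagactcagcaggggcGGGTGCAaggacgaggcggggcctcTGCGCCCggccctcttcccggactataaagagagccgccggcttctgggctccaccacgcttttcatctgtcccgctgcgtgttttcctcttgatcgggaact

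The MT2A promoter held 8 matches, 5 on the plus and 3 on the minus strand, and the MT1X promoter held 4. The promoter of MT1H, a gene with 1 read over the 8 libraries, also held 8, and those of MT1B and MT4 held 3 each. Of 35116 promoters of the same length, 29.6% held at least 1 match, 0.601% at least 4 and 0.0199% at least 8, and the median was 0. A match describes letters in the window and is not evidence that a factor binds there.

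Library totals were 142837 and 313454 reads in K562, 248490 to 461497 in HepG2 and 70374 to 176118 in GM12878, and levels are given in CPM, counts per 1000000 reads on tested genes after TMM scaling. Replicates of each line differed by a chi-square of 1.23 to 3.53 per degree of freedom over genes, highest for K562, so none was counted as a repeat. The labels give K562 and GM12878 the same cell type, lymphoblastoid. The genes of 6 erythroid markers (HBG1, HBG2, HBE1, HBZ, GATA1 and HBA1) summed to 33687 to 36251 CPM in K562, to 0 to 2.96 in HepG2 and to 0 in GM12878. Those of 5 B cell markers (MS4A1, CD79A, CD79B, CD74 and IGHM) summed to 0 to 3.45 CPM in K562, with 4 of the 5 at 0, to 188 to 280.0 in HepG2, with 3 at 0, and to 8815 to 9664 in GM12878. The K562 libraries thus carried the erythroid and not the B cell markers, against that cell type label. Those of 6 hepatocyte markers (ALB, AFP, APOA1, SERPINA1, HNF4A and TF) summed to 0 CPM in K562, to 93931 to 115710 in HepG2 and to 0 to 23.3 in GM12878.

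HepG2 had the most metallothionein reads, GM12878 somewhat fewer on the CPM scale and K562 by far the fewest. The 5 genes summed to 26.0 and 110 CPM in the K562 libraries, to 761, 618 and 921 CPM in HepG2, and to 573, 617 and 506 CPM in GM12878. The means were 68.2 ± 59.7 CPM in K562 (SD, n = 2), 767 ± 152 in HepG2 (n = 3) and 565 ± 55.7 in GM12878 (n = 3). Both K562 libraries lay below every library of the other lines, while the lowest HepG2 library lay just above the highest of GM12878. That order of HepG2 and GM12878 rests on the TMM factors, of 0.806 to 0.871 in HepG2 and 1.09 to 1.12 in GM12878. As shares of library totals, without these factors, the libraries of HepG2 and GM12878 overlapped, and K562 stayed lowest. The sums are 36 reads in K562, 624 in HepG2 and 228 in GM12878. With 3 libraries against 3, an exact permutation test cannot give a p under 0.1, and with 2 against 3 none under 0.2, so no p is given for the sum. Levels are relative to a library's other RNA, and fewer cells that carry a transcript cannot be told apart from less of it per cell.

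Similar sums hid different genes. In HepG2 the reads came mostly from MT2A, and in GM12878 mostly from MT1E. MT2A made up 70.3% ± 3.17 of the reads of the 5 genes in HepG2 and 29.2% ± 1.95 in GM12878 (SD, n = 3 each), with ranges of 67.2% to 73.5% and of 27.8% to 31.4% that did not overlap. MT1E made up 11.6% ± 0.387 in HepG2 and 57.2% ± 6.39 in GM12878. The number of MT2A reads per MT1E read was 6.3, 5.86 and 6.0 in HepG2, against 0.614, 0.5 and 0.435 in GM12878. This ratio needs no scaling between libraries, and it was above 5 in every HepG2 library and below 1 in every GM12878 library.

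K562 had the MT2A share of HepG2 without its MT1E. Of 36 K562 reads, 26 were MT2A (72.2%, 95% exact interval 54.8% to 85.8%), 9 were MT1X (25%, 12.1% to 42.2%), 1 was MT1G and none was MT1E or MT1F, which allows a share of up to 9.74% each. Only replicate 2 had the 10 reads set for a share by library.

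**Figure D1:**
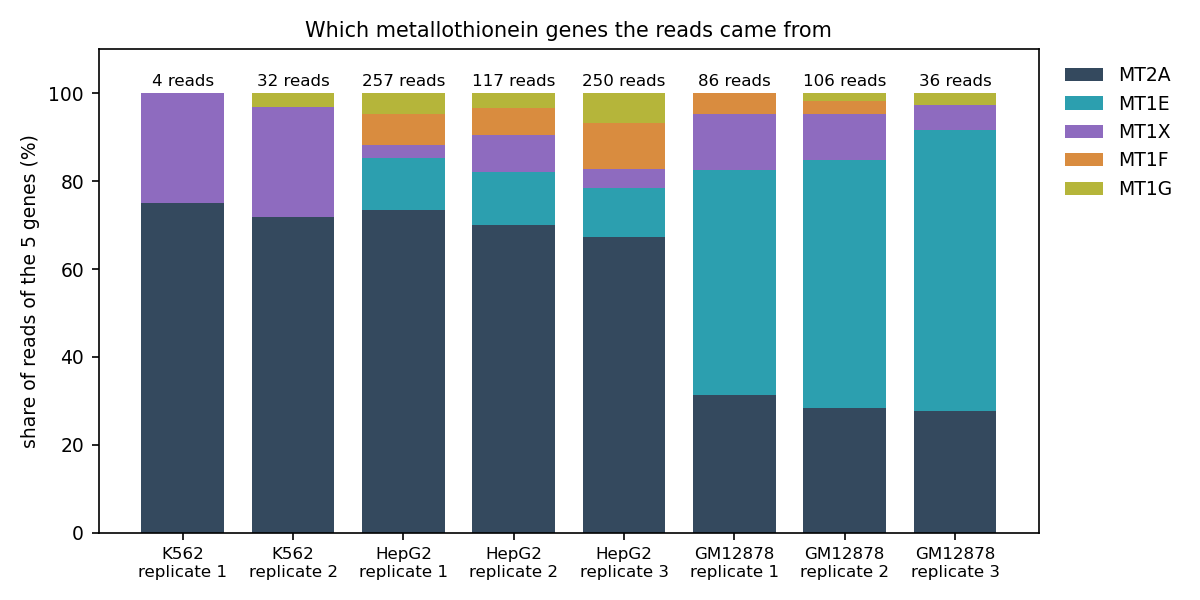
Share of each gene in the reads of the 5 metallothionein genes (y axis, percent) in each library (x axis), with the number of reads above each bar. MT2A makes up 67.2% to 73.5% in HepG2 and 27.8% to 31.4% in GM12878, where MT1E leads, and MT1E is missing from both K562 bars, of 4 and 32 reads.

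MT2A was the metallothionein with the most reads in K562 and HepG2, and it was higher in HepG2 than in either other line. It had 19.5 and 79.3 CPM in K562 (3 and 23 reads). In HepG2 it had 559.6, 433 and 619 CPM (189, 82 and 168 reads). In GM12878 it had 180.0, 175 and 141 CPM (27, 30 and 10 reads). The libraries of the 3 lines did not overlap, with K562 lowest and HepG2 highest. MT2A was higher in HepG2 than in GM12878 by 1.67 on the log2 scale (SE 0.27, 3.19-fold, edgeR adjusted p = 5.75e-07). It was lower in K562 than in HepG2, with a log2 change of -3.25 (SE 0.34, 9.53-fold, edgeR adjusted p = 1.12e-11), and lower in K562 than in GM12878, with a log2 change of -1.58 (SE 0.39, 2.99-fold, edgeR adjusted p = 0.001).

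The size of both K562 differences rested on which K562 library was read. Without K562 replicate 1 the log2 change of MT2A was -2.70 against HepG2 and -1.04 against GM12878, and without K562 replicate 2 it was -4.77 and -3.05, called in each case. MT2A was 4.08-fold higher in K562 replicate 2 than in replicate 1 (95% interval 1.23 to 21.2, counting error only), and the sum of the 5 genes was 4.25-fold higher (1.51 to 16.6). Mitochondrial transcripts made up 0.183% of reads in K562 replicate 1 and 0.407% in replicate 2, against 0.711% to 1.03% in the libraries of the other lines. The part of this in the metallothionein values was not tested.

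MT1E separated the 3 lines most sharply of the 3 tested genes. It had no read in either K562 library, 88.8, 74.0 and 103 CPM in HepG2 (30, 14 and 28 reads), and 293, 349 and 323 CPM in GM12878 (44, 60 and 23 reads). The libraries of the 3 lines did not overlap. The 3 lines thus ranked in another order than for MT2A, with GM12878 highest. MT1E was lower in HepG2 than in GM12878, with a log2 change of -1.84 (SE 0.29, 3.58-fold, edgeR adjusted p = 3.49e-07). With 0 reads, K562 was set at a floor of 6.76 CPM, taken as 3 counts over the line (95% upper counting limit 8.31 CPM). MT1E was lower in K562 than in GM12878 (edgeR adjusted p = 1.28e-13) and than in HepG2 (edgeR adjusted p = 1.26e-08). The means in GM12878 and HepG2 were 47.6 and 13.1 times that floor. These folds leave out the counting error of GM12878 and HepG2.

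MT1X differed less than MT2A and MT1E in the 2 comparisons with HepG2, and as much as MT2A in K562 over GM12878. It had 6.49 and 27.6 CPM in K562 (1 and 8 reads), 23.7, 52.8 and 40.5 CPM in HepG2 (8, 10 and 11 reads) and 73.3, 64.0 and 28.1 CPM in GM12878 (11, 11 and 2 reads). The libraries of HepG2 overlapped those of both other lines, and K562 replicate 2 lay just under GM12878 replicate 3. MT1X was lower in K562 than in GM12878, with a log2 change of -1.57 (SE 0.62, 2.97-fold, edgeR adjusted p = 0.0473), a call close to the threshold that 6 of 8 fits without 1 library lost. Without K562 replicate 1 it was -1.07 (adjusted p = 0.191) and without K562 replicate 2 it was -3.06 (adjusted p = 0.0292) in edgeR. No difference was called between HepG2 and GM12878, where the log2 change was -0.69 (95% interval -1.65 to 0.27, edgeR adjusted p = 0.233), nor between K562 and HepG2, where it was -0.88 (-2.09 to 0.32, edgeR adjusted p = 0.235). These intervals reach past a 2-fold decrease, so MT1X is not shown to be equal.

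MT1F was read mainly in HepG2. It had no read in K562, 53.3, 37.0 and 95.8 CPM in HepG2 (18, 7 and 26 reads) and 26.7, 17.5 and 0 CPM in GM12878 (4, 3 and 0 reads). Every HepG2 library lay above every library of the other lines. The mean of 62.0 ± 30.4 CPM in HepG2 was 4.22 times the 14.7 ± 13.5 CPM in GM12878 (SD, n = 3 each, two-sided exact permutation p = 0.1, the smallest this design allows). The MT1F means in HepG2 and GM12878 were 9.18 and 2.18 times the floor set for K562. The fold for GM12878 rests on 7 GM12878 reads, GM12878 replicate 3 overlapped K562 at 0, and the two-sided exact permutation p was 0.6. It is not a lower bound: pooled 95% counting intervals overlapped, at 0 to 8.31 CPM in K562 and 7.16 to 36.7 in GM12878. Where no filter was applied, edgeR called MT1F higher in HepG2 than in GM12878, by 1.90 on the log2 scale (adjusted p = 0.00737). That fit also called MT1F lower in K562 than in HepG2 (edgeR adjusted p = 5.33e-07) and than in GM12878 (edgeR adjusted p = 0.0384). With no MT1F read in K562, the fitted K562 values are not sizes of change.

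MT1G, too, was read mainly in HepG2. It had 0 and 3.45 CPM in K562 (0 and 1 read), 35.5, 21.1 and 62.6 CPM in HepG2 (12, 4 and 17 reads) and 0, 11.6 and 14.1 CPM in GM12878 (0, 2 and 1 reads). The HepG2 libraries lay above all others, and those of K562 and GM12878 overlapped. Over the line, HepG2 was 5.42 times GM12878 (95% counting interval 1.70 to 27.6), on 33 and 3 reads. K562 was 0.0545 times HepG2 (0.00134 to 0.325), on 1 and 33 reads. Without a filter, the edgeR log2 change of MT1G in HepG2 over GM12878 was 2.42 (adjusted p = 0.0127). In the same edgeR fit MT1G was called lower in K562 than in HepG2 (adjusted p = 0.00132). It was not called in K562 over GM12878 (edgeR adjusted p = 0.637).

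**Figure D2:**
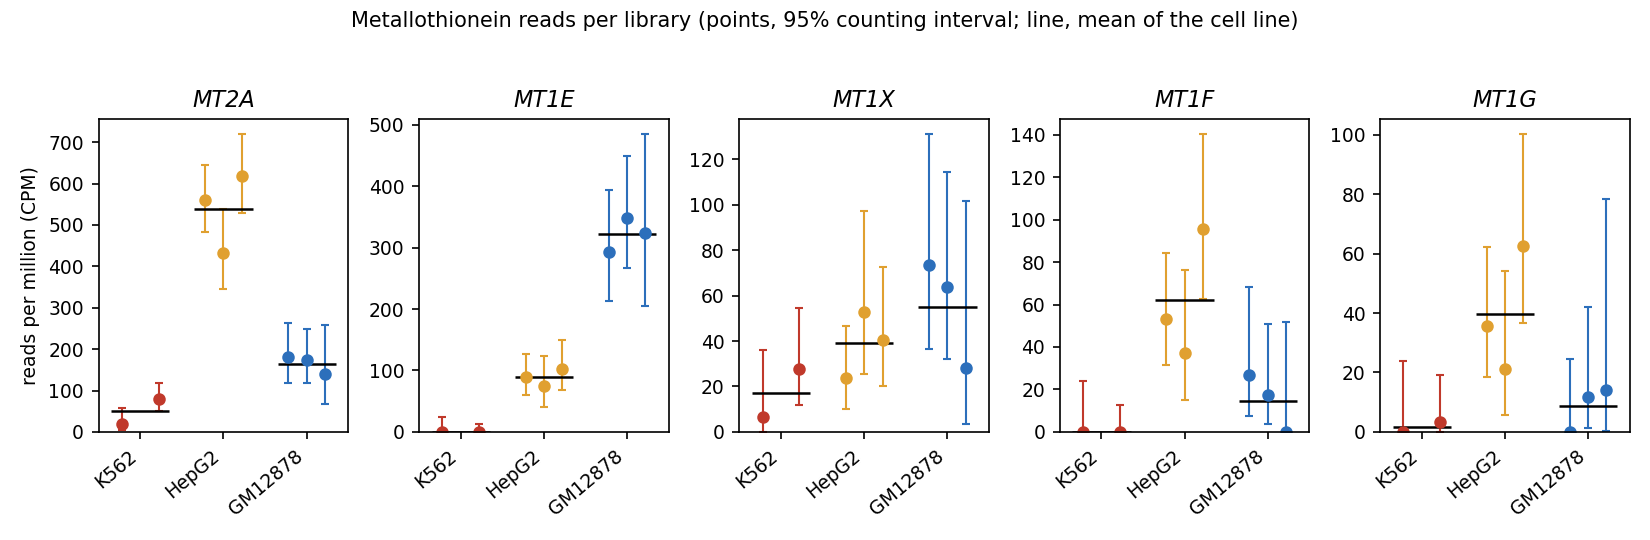
Level of each metallothionein gene in CPM (y axis, a scale of its own for each gene) in the libraries of each line (x axis), with points for libraries, bars for 95% counting intervals and a horizontal line for the mean. MT2A, MT1F and MT1G are highest in HepG2 and MT1E in GM12878, at 293 to 349 CPM, while MT1E and MT1F have no read in K562.

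Set against all genes, calls were common. Of the 3 tested members, 1 was called higher and 1 lower in HepG2 than in GM12878, where 49.1% of all tested genes were called, 28.0% higher and 21.1% lower. In K562 over GM12878, 3 of 3 were called lower, where 28.7% of tested genes were called and 14.8% lower. In K562 over HepG2, 2 of 3 were called lower, where 44.1% were called and 26.7% lower. The median log2 change of the 3 was -0.69, -1.58 and -3.25 in these comparisons, against 0.02, 0.00 and -0.07 over all tested genes. Libraries of the lines compared did not overlap for 2 of 3 members in HepG2 over GM12878 (63.1% of tested genes), 3 of 3 in K562 over GM12878 (48.8%) and 2 of 3 in K562 over HepG2 (64.0%). The 3 passed the filter through the lines where they are high, and the 2 comparisons of K562, like the 2 with GM12878, share libraries. Among 218 tested genes with known transcripts of 300 to 700 bases, 32.1%, 33.9% and 41.3% were called in the same comparisons.

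**Figure D3:**
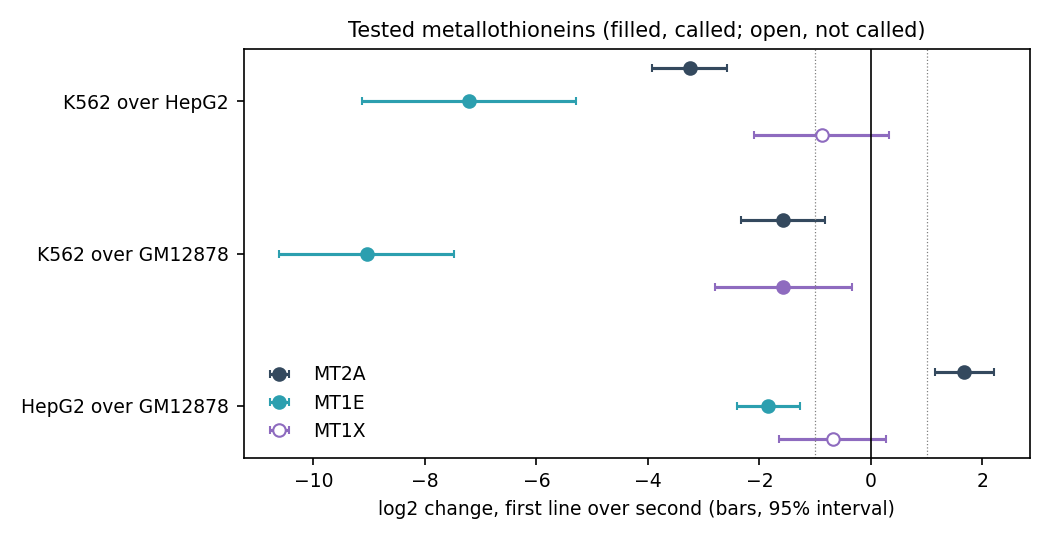
Fitted log2 change (x axis) of the 3 tested metallothioneins in each comparison (y axis), first line over second, with 95% intervals. Filled points were called and open points were not, and dotted lines mark a 2-fold change. MT2A lies at 1.67 and MT1E at -1.84 in HepG2 over GM12878, on opposite sides of 0. MT1E in K562 has no read, so its fitted values are not sizes of change.

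Reads can be compared between genes per length of the main model. On this scale of CPM per kilobase, the order in HepG2 was MT2A at 684, MT1E at 126, MT1G at 98.2, MT1F at 89.9 and MT1X at 86.7. In GM12878 it was MT1E at 457, MT2A at 210.0, MT1X at 123, MT1F at 21.3 and MT1G at 21.1. In K562 it was MT2A at 62.9, MT1X at 37.9 and MT1G at 4.26, with MT1E and MT1F at 0. On this scale the libraries of the 4 genes below MT2A overlapped in HepG2 and those of MT1F and MT1G in GM12878, so their order there is not settled. Those of MT2A and MT1X overlapped in K562. Within each K562 library MT2A had more reads than MT1X, though few, at 3 against 1 and 23 against 8. Model length bears on this scale: the RefSeq start lies 385 bases inside the MT2A model and 306 inside that of MT1E, 265 for MT1F, 46 for MT1X and 0 for MT1G. Counted from that start the lengths are 398 to 425 bases, MT2A in HepG2 is at 1340.0 CPM per kilobase, and MT1F in HepG2, at 146, comes before MT1G, at 98.2, and MT1X, at 96.6.

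Across the cluster, levels did not follow position. Of the metallothionein genes in the tables, MT2A and MT1X stand at the ends, with 74.2 kb between their starts, and MT1F and MT1G begin 49.5 and 59.9 kb from the start of MT2A. Pearson correlations of log2(CPM + 10) over the 8 libraries were 0.881 for MT1F and MT2A, 0.842 for MT1G and MT2A and 0.735 for MT1F and MT1G. They were 0.715 for MT1E and MT1X, 0.568 for MT1X and MT2A and 0.546 for MT1E and MT2A. The rest were 0.486 for MT1F and MT1X, 0.406 for MT1E and MT1F, 0.313 for MT1E and MT1G and 0.160 for MT1G and MT1X. The libraries come from 3 lines and share their depth within a gene pair, so these values are descriptions. Of the other metallothionein genes, MT1A had 2 reads, both in HepG2, MT1H and MT1JP had 1 each, in GM12878, and MT1L and MT1M had none. MT3, MT4, MT1B, MT1HL1 and the pseudogenes MT1DP, MT1CP and MT1IP had no transcript model in the tables. The longest annotated transcripts of MT4, MT1DP, MT1CP and MT1IP have 294, 191, 174 and 242 bases, under the 300 of the shortest known model. Those of MT3, MT1B and MT1HL1 are longer, at 1550, 380 and 316 bases.

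**Figure D4:**
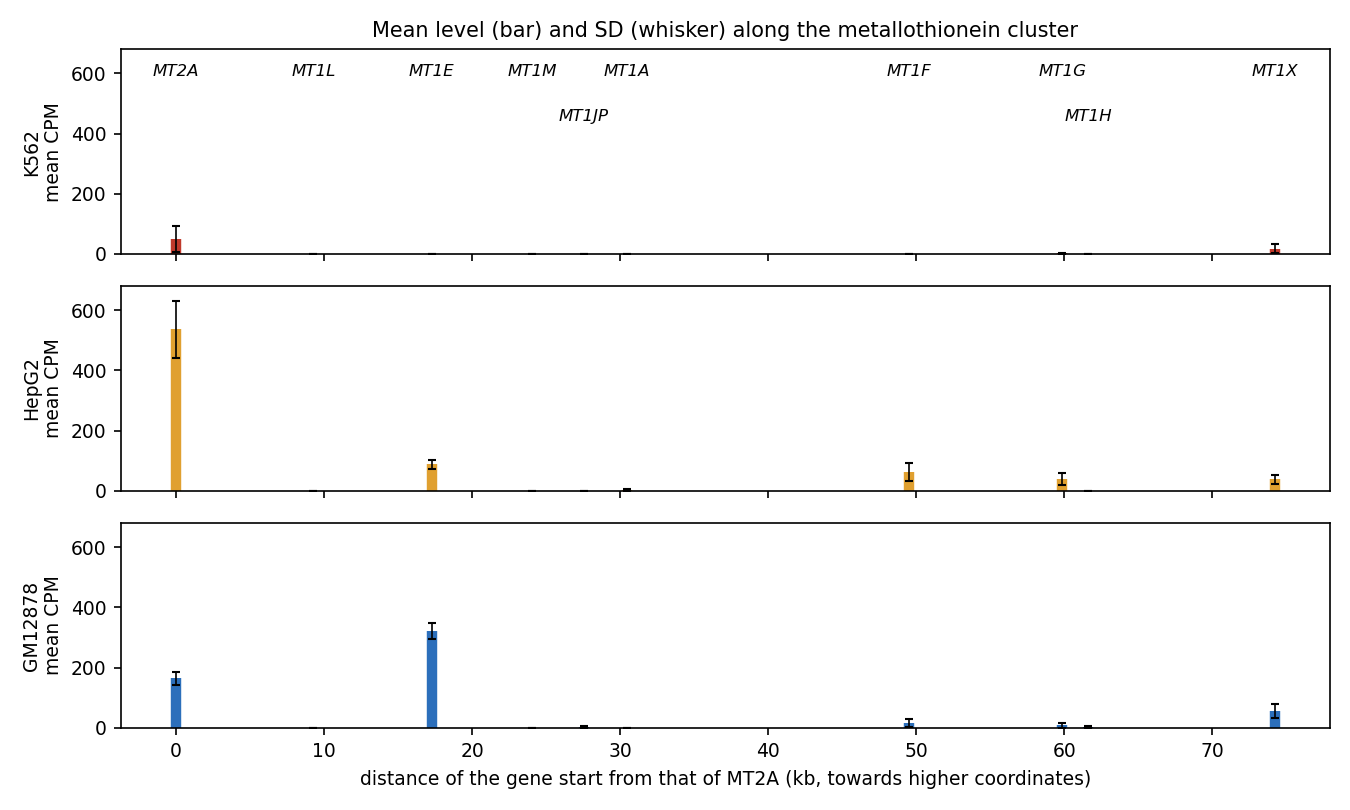
Mean level in CPM (bars, y axis) with its SD (whiskers) of the metallothionein genes in the tables, by distance of the gene start from that of MT2A in kilobases (x axis), for K562 (n = 2), HepG2 (n = 3) and GM12878 (n = 3). The high bars are MT2A in HepG2, at 537 CPM, and MT1E in GM12878, at 322 CPM, and the genes between MT1E and MT1F are at or near 0 in each line.

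Nearly all metallothionein reads fell on annotated transcripts. Of 888 reads, 834 (93.9%, 95% exact interval 92.1% to 95.4%) were on known models, 7 on models that match part of an annotated chain of splice sites, 5 on new combinations of annotated sites and 42 on models with an unannotated splice site. The known share by gene was 96.1% for MT2A, 91.5% for MT1E, 90.3% for MT1X, 86.2% for MT1F and 94.6% for MT1G. The median was 76.6% over the 218 tested genes of 300 to 700 bases (quartiles 54.6% and 97.8%) and 25.2% over all tested genes. MT1X, MT1F and MT1G lay between the median and the upper quartile of genes of such length. The main models of MT2A and MT1E, of 786 and 704 bases, are longer than that range.

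The known share of the family was 95.3%, 94.9% and 94.0% in HepG2, against 94.2%, 92.5% and 88.9% in GM12878. The libraries of both lines overlapped, and the means were 94.7% ± 0.676 and 91.8% ± 2.70 (SD, n = 3 each). Left without MT2A, the order turned, with 88.6% ± 2.75 in HepG2 and 92.7% ± 2.09 in GM12878. In K562, 32 of 36 reads (88.9%, 73.9% to 96.9%) were on known models.

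A single known model carried most reads of each gene. MT2A-201 (786 bases) held 509 of 532 MT2A reads, MT1E-201 (704 bases) 181 of 199, MT1X-201 (450 bases) 54 of 62, MT1F-201 (690 bases) 49 of 58 and MT1G-201 (405 bases) 27 of 37. The other known models with reads were MT2A-204 and MT1X-203 with 2 reads each, MT1E-203 and MT1F-204 with 1 each, and MT1G-202 with 8. MT1G-201 and MT1G-202 differ in exon 2 (chr16:56667312-56667380 in MT1G-201), which has 69 bases in MT1G-201 and 66 in MT1G-202, with the 3 extra bases at its 5′ end. The models have 405 and 406 bases in all, so they also differ outside exon 2. Reads for MT1G-201 and MT1G-202 numbered 1 and 0 in K562, 23 and 8 in HepG2, and 3 and 0 in GM12878. All 8 MT1G-202 reads were thus from HepG2, which also had most MT1G reads, and a difference in usage between lines was not tested at this depth.

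The shortest known model in the tables is 300 bases, and metallothionein messages are close to that limit. Of the 12 known models of the 5 genes, the shortest main one, MT1G-201, has 405 bases, and all 20 annotated transcripts of the 5 genes have at least 300. The models not in the annotation were short and thinly read: 28 of them shared 54 reads, 20 had 1 read each, their median length was 379 bases and 6 of them, with 7 reads in all, were under 300 bases. The longest had 946 bases and the next 431, near the 398 to 425 bases that remain from the RefSeq start, although the known models of MT2A, MT1E and MT1F run to 690 bases or more. The best read of them was an MT2A model with 11 reads. A known model is counted with its full annotated length, so these tables do not show where in its first exon a read began.

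Most tested genes that move zinc into the cytosol (SLC39 family) were called higher in HepG2 than in either other line. Of 14 genes 7 were tested, and 5 were called higher and 0 lower in HepG2 than in GM12878 by edgeR and by DESeq2, with 0 lower at an unadjusted p under 0.05. Among all tested genes, edgeR called 28.0% higher and 21.1% lower in this comparison. With known models only, 2 importers were called higher. SLC39A8, which did not pass the filter and is named after its values were seen, had 6 reads in K562, 1 in HepG2 and 18 in GM12878, and was called lower in HepG2 than in GM12878 without a filter and without GM12878 replicate 1, K562 replicate 1 or K562 replicate 2. SLC39A14, a zinc and manganese importer of liver cells, had 708 ± 164 CPM in HepG2 and 14.9 ± 2.20 in GM12878, a log2 change of 5.49 (edgeR adjusted p = 4.73e-18). SLC39A4, known for zinc uptake in the gut, had 384 ± 70.7 CPM in HepG2 and 10.3 ± 9.12 in GM12878 (log2 change 4.86, edgeR adjusted p = 9.23e-14). SLC39A5 had 138 ± 37.3 CPM in HepG2 and no read in either other line.

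In K562, 3 importers were called higher than in GM12878 and 0 lower by edgeR and by DESeq2, with 0 lower at an unadjusted p under 0.05, though 1 was called lower without K562 replicate 1. Among all tested genes, 13.9% were called higher and 14.8% lower in K562 than in GM12878. In K562 over HepG2 the shares were 17.4% higher and 26.7% lower. Against HepG2, edgeR called 1 importer higher and 6 lower in K562. DESeq2 called 4 lower, the fits without 1 library 4 to 5 (4 without HepG2 replicate 1 or 2 or K562 replicate 2), and 0 were called lower with known models only. SLC39A4 was at 121 ± 49.1 CPM in K562 (n = 2) and 10.3 ± 9.12 in GM12878 (log2 change 3.13, edgeR adjusted p = 9.95e-06). SLC39A14 was at 38.6 ± 8.77 CPM in K562 and 708 ± 164 in HepG2 (log2 change -4.13, edgeR adjusted p = 4.21e-15). Against GM12878, the tested metallothioneins and the called importers thus differed in direction in K562. The median log2 change of the 7 importers was 3.09 in HepG2 over GM12878, 1.36 in K562 over GM12878 and -1.73 in K562 over HepG2.

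Genes listed as zinc exporters (SLC30 family) were too thinly read to test, with 0 of 10 genes tested and 8 with reads. SLC30A1, the exporter of the cell surface and itself a target of MTF1, had 10 reads in K562, 32 in HepG2 and 1 in GM12878. SLC30A10, of the same family, had 4, 20 and 0 reads in the same lines. The 8 listed genes with reads summed to 84.4 to 131 CPM in K562, 122 to 169 in HepG2 and 28.1 to 46.7 in GM12878.

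Of 8 regulators, 3 were tested and 0 were called in any comparison by edgeR or DESeq2, with 0 at an unadjusted p under 0.05. That 0 depends on the filter: NFE2L2, which encodes the oxidant response factor NRF2 and is named here after its values were seen, did not pass it, with 13 reads in K562, 53 in HepG2 and 6 in GM12878. Without a filter, edgeR called NFE2L2 higher in HepG2 than in GM12878, by 2.17 on the log2 scale (adjusted p = 0.00196), and it was also called where any GM12878 or K562 library was left out (1.80 to 2.36). MTF1, the metal sensor, had 3 reads in K562, 1 in HepG2 and 5 in GM12878, too few to compare. KEAP1, which holds back NRF2, had 111 ± 25.9 CPM in K562, 130 ± 29.3 in HepG2 and 124 ± 18.1 in GM12878, and the spread between libraries covers these differences. USF2, a factor that binds E-boxes, had 86.5 ± 58.1 CPM in K562, 107 ± 6.25 in HepG2 and 91.1 ± 23.4 in GM12878.

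Copper handling genes were mixed: of 9 tested, 2 were called higher and 1 lower in HepG2 than in GM12878, 1 higher and 3 lower in K562 than in GM12878, and 5 lower in K562 than in HepG2. The shares of all tested genes called in these comparisons were 49.1%, 28.7% and 44.1%. With known models only, 0 copper genes were called higher in HepG2 than in GM12878 and 2 lower in K562 than in HepG2. SLC31A1, the copper importer of the cell surface, had 125 ± 15.0 CPM in HepG2 and 32.7 ± 12.3 in GM12878 (log2 change 1.89, edgeR adjusted p = 0.000166). COX17, which carries copper to cytochrome c oxidase, had 82.2 ± 20.0 CPM in HepG2 and 296 ± 69.4 in GM12878 (log2 change -1.78, edgeR adjusted p = 1.16e-06). ATOX1, the cytosolic copper chaperone, had 104 ± 37.6 CPM in K562, 251 ± 13.6 in HepG2 and 214 ± 88.3 in GM12878. ATOX1 was called lower in K562 than in HepG2, a call that 1 of 8 fits without 1 library lost. Its call in K562 over GM12878 (log2 change -1.06, edgeR adjusted p = 0.0126) was lost with DESeq2 (adjusted p = 0.0618), without a filter, with known models only, with 2 lines alone and in 5 of 8 fits without 1 library, those without GM12878 replicate 1 or 2, HepG2 replicate 1 or 2, or K562 replicate 1 (-0.76 without K562 replicate 1).

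Genes of the oxidant and metal stress list, which cadmium also induces in part, were called in both directions. Of 9 tested, 3 were called higher and 2 lower in HepG2 than in GM12878, 2 and 2 in K562 than in GM12878, and 2 and 2 in K562 than in HepG2. Beside these stand 49.1%, 28.7% and 44.1% of all tested genes called in the same comparisons. Several counts of calls on the list were unstable. Higher in K562 than in HepG2 was 1 with DESeq2 and 1 with known models only. Higher in K562 than in GM12878 was 1 with known models only. Lower in HepG2 than in GM12878 were 0 with DESeq2, 0 without a filter and 0 (without HepG2 replicate 1) to 3 (without GM12878 replicate 3) with 1 library left out. Lower in K562 than in GM12878 was 1 with DESeq2 and in 6 of 8 fits without 1 library, all but those without GM12878 replicate 2 or K562 replicate 1, and lower in K562 than in HepG2 were 4 without K562 replicate 1. NQO1, a quinone reductase, had 49.0 ± 23.4 CPM in K562, 957 ± 45.3 in HepG2 and 74.5 ± 46.7 in GM12878, highest in HepG2 as MT2A was (log2 change 3.54 in HepG2 over GM12878, edgeR adjusted p = 1.43e-15). HMOX1, heme oxygenase, had 1 read in K562, 39.3 ± 17.3 CPM in HepG2 and 89.7 ± 13.2 in GM12878, an order like that of MT1E (K562 over GM12878 ratio 0.0246, 95% counting interval 0.000606 to 0.146, on 1 and 36 reads; edgeR adjusted p = 2.98e-06). HSPA1A, a heat shock protein whose near-identical copy HSPA1B makes its reads uncertain, had 174 ± 65.7 CPM in K562, 81.7 ± 25.3 in HepG2 and 8.61 ± 10.3 in GM12878.

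Genes listed as neighbours of the cluster gave 4 called higher and 2 lower of 13 tested in HepG2 over GM12878. The counts were 1 and 1 in K562 over GM12878, and 1 and 4 in K562 over HepG2. Of all tested genes, 49.1%, 28.7% and 44.1% were called in these comparisons. With known models only, 2 neighbours were higher and 0 lower in HepG2 over GM12878. In K562 over GM12878, without K562 replicate 2 the counts were 0 higher and 2 lower. The 4 lower in K562 over HepG2 ranged from 2 (without HepG2 replicate 1) to 5 (without K562 replicate 2). CX3CL1, a chemokine, had 466 ± 13.8 CPM in HepG2, no read in K562 and 1 read in GM12878. CCL22, another chemokine gene of the list, had no read in K562 or HepG2 and 195 ± 100 CPM in GM12878. Its edgeR adjusted p was 6.13e-12 in HepG2 over GM12878. POLR2C, an RNA polymerase II subunit, had 137 ± 8.24 CPM in K562, 158 ± 32.9 in HepG2 and 94.3 ± 40.3 in GM12878, and was called in none of the comparisons. In HepG2 over GM12878 its log2 change was 0.84 (edgeR adjusted p = 0.0335), short of the 2-fold threshold, and it was called without GM12878 replicate 3 (1.09, adjusted p = 0.0162) and without HepG2 replicate 1 (1.07, adjusted p = 0.0207).

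Genes whose profile over the 8 libraries was most like that of a member were found by Pearson correlation of log2(CPM + 10) among the 4778 tested genes, as a description with no test. For MT1E they were ARPC2 (r = 0.996), UBE2C (0.990) and ISG20 (0.987). For MT2A they were PDXDC1 (0.985), ECE1 (0.983) and RPL37A (0.980), and for MT1X they were BCR (0.95), TAPBP (0.937) and DDB2 (0.915). For the sum of the 5 genes they were GLRX (0.986), DRAM1 (0.978) and SPATA20 (0.977). An r of at least 0.9 was reached by 107 genes for MT1E, 140 for MT2A and 6 for MT1X. For MT1E and MT2A, a high r was thus not particular to the genes named.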

How the data were processed

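Per the labels, total RNA was sequenced by direct RNA sequencing, and the deposited tables are TALON abundance tables, one per line, with read counts per transcript model that are not normalized. The aligner was minimap2 and the build hg38, per the submitters' processing notes; versions and the TALON annotation are not given in the sources used here. The authors' tables hold 506946 models, of which 35496 are known. The gene and transcript annotation set beside the tables here was GENCODE 29, and whether TALON used the same is not stated.

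For each annotated gene the counts of its models, known or not, were added up. Genes that passed filterByExpr entered a single two-sided edgeR 4.0.16 quasi-likelihood fit of all 8 libraries (R 4.3.3; TMM factors, glmQLFit with robust set, glmQLFTest). Benjamini-Hochberg adjustment ran over 4778 genes in each comparison. A call needed an adjusted p under 0.05 and a fitted change of at least 2-fold. SE is the log2 change divided by the square root of F. A line with 0 reads was set at 3 counts over the line, and floors and 95% exact intervals cover counting error only. Shares by library needed 10 metallothionein reads. The procedure was tested on simulated counts. Alternatives were RLE scaling, DESeq2 1.42.0, no filter, known models only, a replicate block, 2 lines alone, and each library left out.

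Members and lists were chosen with earlier results of these data known. Named genes were the 5 members, the other metallothioneins with reads, and from each list the called genes of largest change and the most abundant; of these, a part is printed. MTF1, SLC30A1, SLC30A10, NFE2L2 and SLC39A8 were untested and are named after their values were seen. A B cell marker of the list is not reported here, and its reads are left out of the summed marker levels.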

Additional observations from a re-analysis of the deposited data

How the results depend on the processing

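The direction of all 9 log2 changes of MT2A, MT1E and MT1X held in every alternative that tested them, and so did all calls but 1. MT1X in K562 over GM12878 lost its call with RLE scaling (-1.55, adjusted p = 0.0506), with DESeq2 (-1.60, 0.175) and without a filter (-1.41, 0.144); without 1 library each it ranged from -3.06 to -1.07. With 1 K562 library left, it is assumed to vary like the others. With 2 lines alone MT1X did not pass the filter. Of all genes, 2348 were called in HepG2 over GM12878 (3746 without a filter, 777 with known models only, 1898 to 2979 without 1 library), 1371 in K562 over GM12878 (459 with known models only, 1114 to 1855) and 2105 in K562 over HepG2 (3298 without a filter, 714 with known models only, 1675 to 2503); fewer genes and reads enter with known models only. The difference in known share, HepG2 minus GM12878, was 2.89 points and turned to -4.03 without MT2A; the cause was not tested.

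Replicate numbers did not pair the libraries, with correlations of same-numbered libraries from -0.0536 to 0.0381. With a replicate block, 2309, 1291 and 1998 genes were called in these comparisons, and no call of a member changed.

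List genes that were not called changed sign with the setting. KEAP1 in K562 over GM12878 (-0.16) turned to 0.024 without a filter, and USF2 there (-0.019) to 0.0052 with RLE scaling, 0.15 without a filter and 0.036 with 2 lines alone. In K562 over HepG2, POLR2C turned to 0.13 with known models only and TXN, thioredoxin, to 0.061 with 2 lines alone. Without 1 library, ATOX1 in HepG2 over GM12878 ranged from -0.10 to 0.30 and KEAP1 from -0.081 to 0.39; in K562 over GM12878 KEAP1 ranged from -0.32 to 0.14 and USF2 from -1.04 to 0.46; in K562 over HepG2 POLR2C ranged from -0.31 to 0.0054, TXN from -0.23 to 0.059 and USF2 from -1.24 to 0.32. Counts of called list genes moved with the setting, and a part of these moves is given beside them. In HepG2 over GM12878, 4 importers were called higher with 2 lines alone. Without a filter, 3 copper handling genes and 5 listed neighbours of the cluster were called higher in that comparison. K562 depth limits MT1E and MT1F there to a floor and MT1G to a wide counting interval.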
